A study of Mus musculus with 12 samples.

Results

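The 9 genes described here encode proteins with which the lung makes surfactant: Sftpa1, Sftpb, Sftpc, Sftpd, Abca3, Lamp3, Napsa, Lpcat1 and Slc34a2. They were taken by symbol from the 31053 genes listed in each of 12 single-nucleus libraries, and their unique molecular identifiers (UMIs, 1 per captured RNA molecule) were read in every class of nuclei. The nuclei were sorted with DAPI from perfused, frozen lungs of C57BL/6J mice that were a few weeks old when instilled, with 3 mice and 1 library per mouse in each group. PBS_vehicle mice received PBS into the trachea and vehicle by daily oral gavage, and PBS_NVP mice received PBS and NVP-BHG712, an inhibitor of the EphB4 receptor tyrosine kinase. Bleo_vehicle mice received bleomycin, which injures the lung epithelium and leads to fibrosis, and vehicle. Bleo_NVP mice received bleomycin and NVP-BHG712, which was started days after the injury, and all lungs were taken at a single time weeks after instillation. The inhibitor was given to the whole animal, so these groups do not show in which cells it acted. The comparisons address whether bleomycin and the inhibitor altered the RNA of surfactant genes in the cells that make surfactant.

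Surfactant is a film of phospholipid and protein that lowers surface tension where air meets the liquid lining of the alveolus, and type II alveolar cells assemble it in lamellar bodies and secrete it. Lpcat1 makes its main phospholipid, dipalmitoyl phosphatidylcholine. Abca3 pumps phospholipid into the lamellar body, Lamp3 lies in the membrane of that organelle, and Slc34a2 takes up phosphate released in the airspace. The hydrophobic proteins Sftpb and Sftpc spread the film, the aspartic protease Napsa helps to cleave the Sftpb precursor, and the collectins Sftpa1 and Sftpd bind microbes. Type II cells are also progenitors of the alveolus, and after injury they pass through a transitional state to become type I cells.

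The genes lie on 7 chromosomes of GRCm38. Sftpa1 (ENSMUSG00000021789, chromosome 14, 41131782 to 41136452, plus strand) and Sftpd (ENSMUSG00000021795, chromosome 14, 41172214 to 41185149, minus strand) are 35.8 kb apart, and Sftpc (ENSMUSG00000022097, minus strand) lies on the same chromosome at 70520949 to 70524081. Abca3 (ENSMUSG00000024130, chromosome 17, 24351950 to 24410201, plus strand) begins 0.881 kb beyond the end of Abca17. Promoters in RefSeq (250 bases before to 50 after the gene start, GRCm38.p6) matched 6 of the 9 genes. Those of Lamp3 and Abca3 are shown because these genes moved most between groups of type II-like nuclei, and that of Sftpb because it holds the most matches to motifs of lung epithelial regulators. Capitals mark matches, on either strand, to CTCAAG (NKX2-1, in 16.2% of 27025 promoters), TNTTTAC (FOXA, 12.4%), TTCNNNGAA (STAT, 8.47%) and TGANTCA (AP-1, 7.93%).
Sftpb, chr6:72304360-72304659, plus strand: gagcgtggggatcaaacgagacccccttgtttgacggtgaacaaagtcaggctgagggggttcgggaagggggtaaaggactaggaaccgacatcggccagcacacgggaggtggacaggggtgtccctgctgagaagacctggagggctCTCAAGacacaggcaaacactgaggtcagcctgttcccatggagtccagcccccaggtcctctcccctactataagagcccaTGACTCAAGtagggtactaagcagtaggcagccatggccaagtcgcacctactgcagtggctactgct
Lamp3, chr16:19706316-19706615, minus strand: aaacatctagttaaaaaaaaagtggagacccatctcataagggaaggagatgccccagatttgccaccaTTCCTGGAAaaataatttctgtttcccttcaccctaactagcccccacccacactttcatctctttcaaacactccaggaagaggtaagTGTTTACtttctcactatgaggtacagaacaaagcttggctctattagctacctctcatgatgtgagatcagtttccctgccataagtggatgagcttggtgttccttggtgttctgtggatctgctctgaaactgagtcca
Abca3, chr17:24351773-24352072, plus strand: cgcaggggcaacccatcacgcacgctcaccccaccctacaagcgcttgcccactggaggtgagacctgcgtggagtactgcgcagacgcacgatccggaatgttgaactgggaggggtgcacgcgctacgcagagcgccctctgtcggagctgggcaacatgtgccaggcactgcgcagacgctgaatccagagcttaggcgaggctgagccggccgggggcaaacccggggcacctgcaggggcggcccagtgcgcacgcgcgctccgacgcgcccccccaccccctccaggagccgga
The Sftpb promoter held CTCAAG at -100 and at -15 from the gene start, and the match at -15 overlapped one to TGANTCA at -18, so that both stand in 1 run of capitals. In the Lamp3 promoter a STAT match began at -181 and a FOXA match at -92. None of these letters were in the Abca3 window. G and C made up 69.7% of the Abca3 window, 43.7% of that of Lamp3 and 58.3% of that of Sftpb, against a median of 52.7% over all promoters.

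Of 49163 barcodes, 44611 nuclei were kept, and 4519 of them (10.1%) were type II-like. Their cluster was found without the 9 surfactant genes and carried 12 of 12 other type II markers, such as Etv5 and Hc. The Bleo_vehicle libraries stood apart from the rest. Their median mitochondrial share per barcode was 0.668% to 2.56%, against at most 0.0496% in the other 9 libraries. Type II-like nuclei numbered 154 to 1463 per library and held 288134 to 5235129 UMIs, and any pair of libraries shared at most 34 barcodes. The labels give run 4 for the Bleo_NVP libraries, runs 1 to 3 for the PBS libraries and batches 6, 6 and 7 for Bleo_vehicle, so that in comparisons with a bleomycin group the batch cannot be told apart from the group. Intervals below cover counting and library error as each fit estimates it, and p-values measure the spread between separate mice.

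Surfactant gene RNA was concentrated in type II-like nuclei. In 12 of 12 libraries and for each of the 9 genes, the type II-like level was the highest among the named classes with at least 20 nuclei in that library, in CPM (the UMIs of a gene per 1000000 UMIs of that class and library). Over the 9 libraries that are not Bleo_vehicle, Slc34a2 averaged 2865 CPM in type II-like nuclei and 140.3 CPM in the next class, club-like nuclei, a 20.4-fold step. For Lamp3 the step was 14.4-fold, from 1712 CPM to 118.7 CPM in B lymphocyte-like nuclei. The narrowest step was that of Napsa, 2.08-fold above dendritic-like nuclei (177.3 against 85.4 CPM). Club-like nuclei also came next for Sftpd (2.84-fold), Abca3 (3.31-fold), Sftpb (3.60-fold) and Sftpa1 (5.69-fold). B lymphocyte-like nuclei came next for Sftpc (8.48-fold), and dendritic-like nuclei for Lpcat1 (9.25-fold). The B lymphocyte-like levels rest on 4 of the 9 libraries with at least 20 such nuclei and ranged from 162 to 915.5 CPM for Sftpc, so the order of this class against other non-epithelial classes was within its own spread. Levels of different genes are not compared here, since UMIs were not scaled by gene length.

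**Figure D1:**
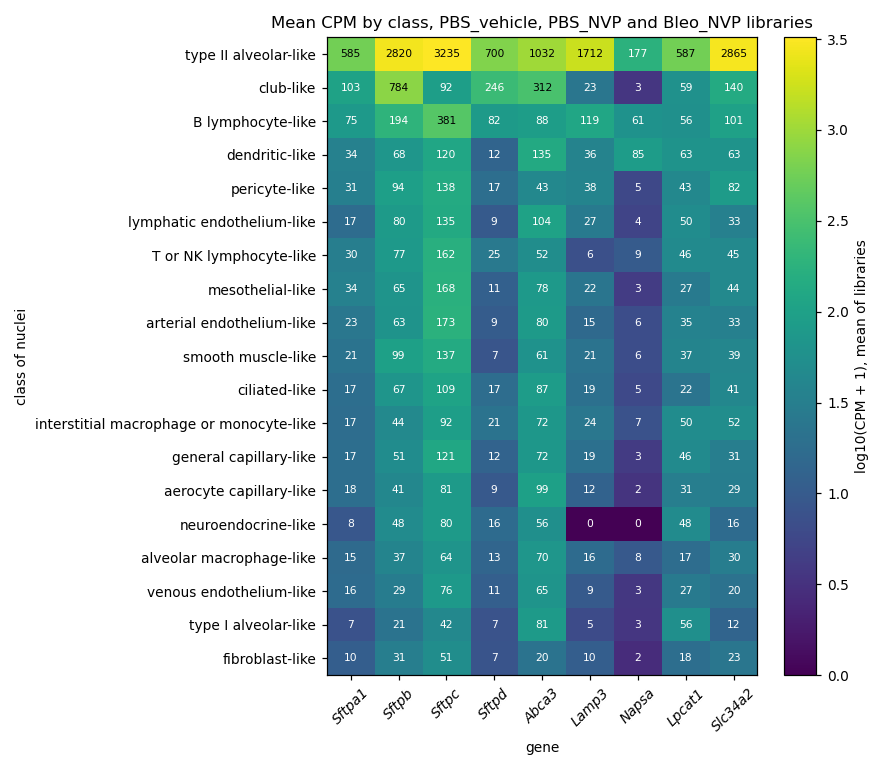
Mean CPM of the 9 surfactant genes (columns) in 19 classes of nuclei (rows), over the PBS_vehicle, PBS_NVP and Bleo_NVP libraries with at least 20 nuclei of a class. Colour gives the CPM on a log scale. Type II-like nuclei are the highest in every column, and club-like nuclei stand out among the other classes for Sftpb (783.6 CPM), Sftpd (246.2 CPM) and Abca3 (312.1 CPM).

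Every other large class also gave UMIs of these genes, as droplet data do where RNA freed from broken cells is captured along with the nuclei. RNA from a single source would keep its genes in 1 ratio in every class of a library. The ratio of each gene to Sftpc in a class was therefore set against the same ratio in the other named classes pooled, without type II-like and club-like nuclei, library by library, a comparison chosen after the data were seen. Of 96 pairs of gene and class 19 differed (two-sided exact sign-flip test over libraries, Benjamini-Hochberg over the 96), 8 with a higher and 11 with a lower ratio. The lower ones included Abca3 (-0.67, in 12 of 12 libraries) and Lpcat1 (-0.47, in 11 of 12) in general capillary-like nuclei, whose pool held the type I-like nuclei.

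Club-like nuclei, the secretory cells of the airway, held 5 of the 8 higher ratios. Relative to Sftpc, their Sftpd was higher by 3.64 on the log2 scale, Sftpb by 3.46, Sftpa1 by 2.29, Slc34a2 by 1.93 and Abca3 by 1.77, each in 11 of 11 libraries (exact permutation p = 0.000977, adjusted 0.00852). The club-like level of Sftpb was 1066, 626 and 652 CPM in PBS_vehicle, 1163, 732 and 660.0 in PBS_NVP, 391, 651 and 816 in Bleo_vehicle, and 703.5, 855 and 595 in Bleo_NVP. Each of these was above the level of Sftpb in general capillary-like nuclei of the same library, which ranged from 21.1 to 268.9 CPM. Club-like Sftpd was 163 to 307 CPM over the 12 libraries and overlapped between all groups.

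Type I-like nuclei, the flat cells of gas exchange, had higher ratios of Lpcat1 (by 1.88) and Abca3 (by 1.48) in 12 of 12 libraries (exact permutation p = 0.000488, the smallest that 12 libraries can give, adjusted 0.00852). Their Lpcat1 ranged from 37.1 to 73.9 CPM and their Abca3 from 48.4 to 114 CPM. Levels of both genes in general capillary-like nuclei overlapped these ranges. Type I-like nuclei were the lowest of the 19 classes for Sftpa1, Sftpb, Sftpc, Sftpd and Slc34a2. Sftpc is the reference of the ratio, so the higher ratios here are not read as higher levels of Lpcat1 and Abca3. In alveolar macrophage-like nuclei the ratio of Napsa was higher by 0.95, in 9 of 10 libraries (exact permutation p = 0.00586, adjusted 0.0352). Dendritic-like nuclei had a Napsa ratio higher by 2.39 in 6 of 6 libraries, which did not pass after adjustment (exact permutation p = 0.0312, the smallest that 6 libraries can give, adjusted 0.1). Their Sftpb ratio differed by -0.12 (adjusted p = 0.921 by the same exact test).

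Set against type II-like nuclei instead, 44 of the 96 ratios differed, 10 higher and 34 lower. Lamp3 was lower relative to Sftpc in 10 of 12 classes and Slc34a2 in 9. General capillary-like nuclei are endothelial cells, which are not known to make surfactant. In them the ratio of Lamp3 to Sftpc differed from that in type II-like nuclei by -2.01 on the log2 scale, and the ratio of Slc34a2 by -1.87. Both were lower in 12 of 12 libraries (exact permutation p = 0.000488, adjusted 0.00721). Those of Abca3 (0.51, adjusted p = 0.232) and Lpcat1 (0.68, adjusted p = 0.106) did not pass the exact test. Over the 9 libraries that are not Bleo_vehicle, 5.35% to 12.6% of the Lamp3 UMIs and 6.77% to 18.6% of the Slc34a2 UMIs were counted outside type II-like nuclei, and 11.2% to 34.2% of those of Sftpc.

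**Figure D2:**
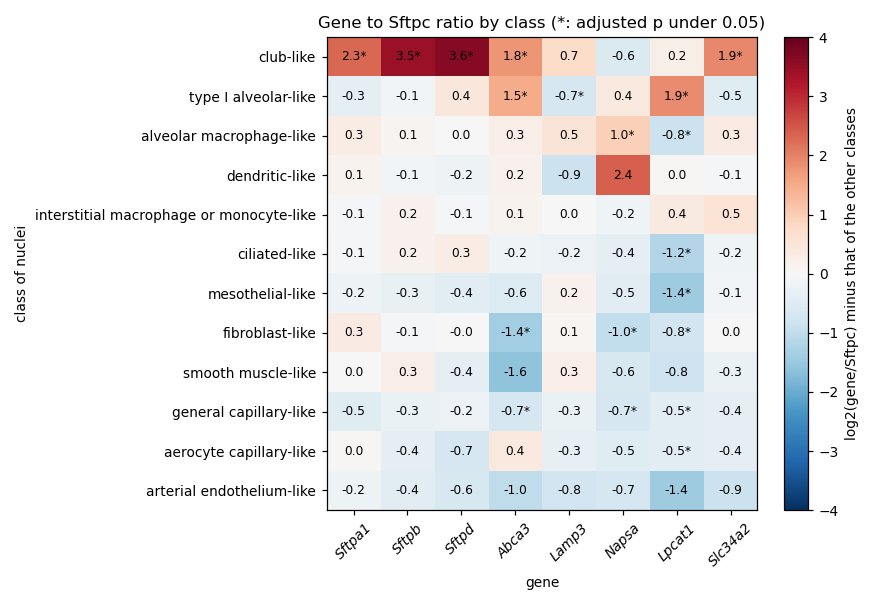
Ratio of each gene to Sftpc by class, as the mean over libraries of log2(gene/Sftpc) in a class minus the same in the other classes pooled. Columns are genes and rows are classes, red marks higher and blue lower ratios, and a star an adjusted p under 0.05. Club-like nuclei carry 5 starred higher ratios, led by Sftpd (3.64) and Sftpb (3.46), type I-like nuclei 2 and alveolar macrophage-like nuclei 1.

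Within type II-like nuclei, Lamp3, Abca3, Lpcat1 and Slc34a2 were lowest in Bleo_vehicle. Lamp3 stood at 1428, 1580.0 and 1662 CPM in PBS_vehicle, at 1556, 1768 and 1866 in PBS_NVP, at 281, 590.4 and 823.5 in Bleo_vehicle, and at 1816, 1952 and 1777 in Bleo_NVP. All 3 Bleo_vehicle libraries lay below the other 9. Abca3 was at 1321, 946 and 904 CPM in PBS_vehicle, 1386, 868 and 1028 in PBS_NVP, 295, 329.8 and 646 in Bleo_vehicle, and 1011, 911 and 912 in Bleo_NVP. Here too Bleo_vehicle lay below every other library.

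Lpcat1 was measured at 679.6, 492 and 641 CPM in PBS_vehicle, 797.5, 488 and 591 in PBS_NVP, 285, 205 and 353 in Bleo_vehicle, and 501, 508 and 585 in Bleo_NVP. Its Bleo_vehicle values again lay below the other 9. The levels of Slc34a2 were 3478, 2654 and 2749 CPM in PBS_vehicle, 3643, 2587 and 2636 in PBS_NVP, 656, 1141 and 2060.0 in Bleo_vehicle, and 2605, 2713 and 2721 in Bleo_NVP. Bleo_vehicle 3, the library with the most UMIs in total, came nearest to the other groups without reaching them. PBS_vehicle 1 and PBS_NVP 1, the libraries of run 1, were the highest of the 12 for Slc34a2, Abca3, Lpcat1, Sftpb and Napsa.

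The surfactant proteins were more mixed. Sftpb was at 3967, 2369 and 2405 CPM in PBS_vehicle, 4169, 2731 and 2257 in PBS_NVP, 836, 1397 and 2018 in Bleo_vehicle, and 2397, 2905 and 2180.0 in Bleo_NVP. Bleo_vehicle did not overlap the other groups. Sftpc was at 2347, 3498 and 3540.0 CPM in PBS_vehicle, 2543, 3347 and 3598 in PBS_NVP, 1513, 3462 and 3671 in Bleo_vehicle, and 3414, 3454 and 3378 in Bleo_NVP. Bleo_vehicle 1 and the libraries of run 1 were the lowest, the remaining 9 lay between 3347 and 3671 CPM, and groups overlapped.

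The collectins also overlapped. Sftpa1 ranged from 482 to 680.2 CPM in 11 libraries and was 156 CPM in Bleo_vehicle 1. Sftpd ranged from 505.5 to 797.9 CPM in 11 libraries and was 337 CPM in Bleo_vehicle 1. For both genes Bleo_vehicle 3, at 646 CPM of Sftpa1 and 788 CPM of Sftpd, was among the highest libraries. The protease gene Napsa was at 228, 162 and 155 CPM in PBS_vehicle, 222.5, 192 and 122 in PBS_NVP, 114.5, 127 and 165 in Bleo_vehicle, and 157, 189 and 168 in Bleo_NVP, with overlap between groups.

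**Figure D3:**
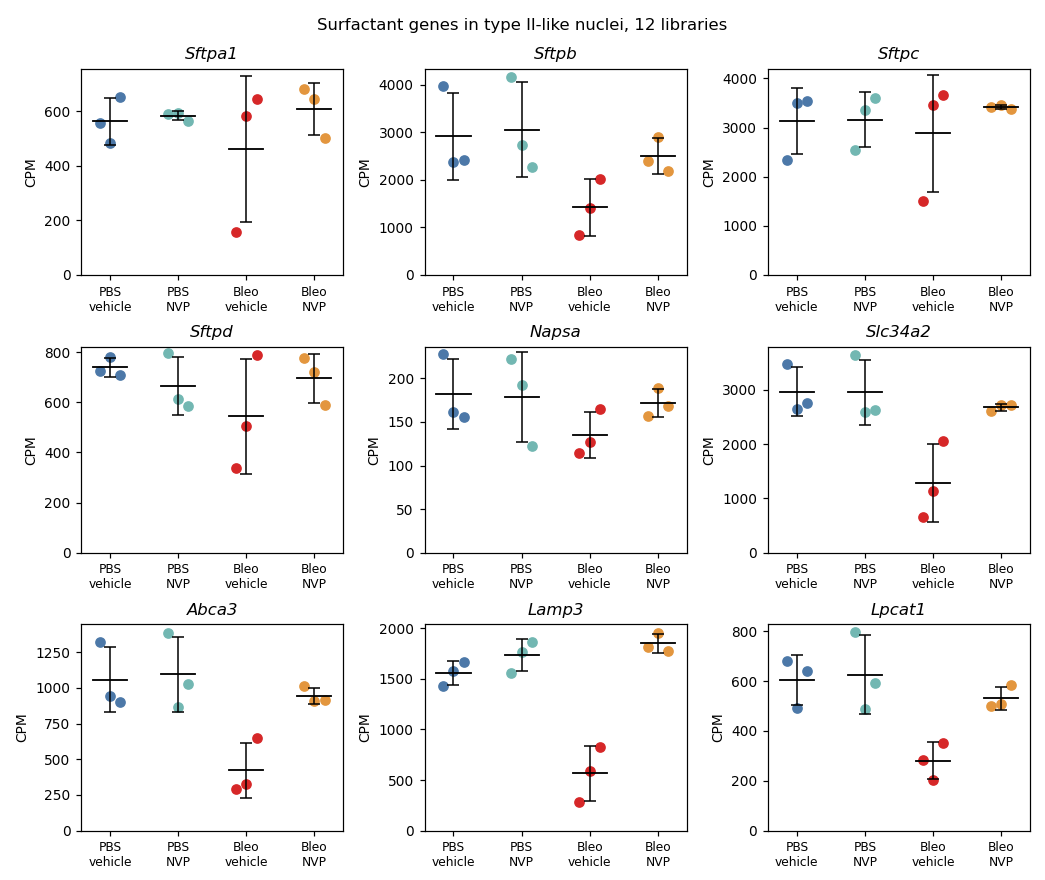
CPM of each surfactant gene in type II-like nuclei, with 1 panel per gene, 1 point per library (3 per group), the group mean as a bar and the SD as whiskers. The 3 Bleo_vehicle points lie below the other groups for Lamp3, Abca3, Lpcat1, Slc34a2 and Sftpb, and overlap them for Sftpc, Sftpa1, Sftpd and Napsa.

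Bleo_vehicle against PBS_vehicle compares mice with and without bleomycin, none of them given the inhibitor. In it bleomycin cannot be told apart from batch. In edgeR 4 of the 9 genes fell, where 1.84% of the 6097 genes tested were called and lower. On the log2 scale Lamp3 fell by 1.32 (SE 0.26, edgeR adjusted p = 0.00878), from a mean of 1557 ± 118.5 CPM (SD, n = 3) to 565 ± 272. Abca3 fell by 1.18 (SE 0.249, edgeR adjusted p = 0.0124), from 1057 ± 229.8 to 424 ± 193 CPM. Lpcat1 fell by 0.97 (SE 0.208, edgeR adjusted p = 0.0124) and Slc34a2 by 1.08 (SE 0.287, edgeR adjusted p = 0.0381). Sftpb did not pass at -0.91 (SE 0.295, edgeR adjusted p = 0.0884).

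The other 4 genes lay nearer to 0. The difference of Sftpc was 0.0033 (95% interval -0.55 to 0.56), that of Sftpa1 -0.12 (-0.76 to 0.52), that of Sftpd -0.30 (-0.74 to 0.14) and that of Napsa -0.29 (-0.71 to 0.13). The median over the 9 genes was -0.91, against -0.005 over all genes tested. Values did not overlap, with Bleo_vehicle lower, for 5 of the 9 genes, where this held for 16.6% of the genes tested.

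How many genes were called rested on single libraries. Lamp3 was called in 25 of 26 alternative settings, with log2 changes of -1.65 to -0.92, Abca3 and Lpcat1 in 22, Slc34a2 in 15 and Sftpb in 4. The count of 4 became 1 without PBS_vehicle 1 or without Bleo_vehicle 2, 2 without both libraries of run 1 and 0 when only the 6 libraries compared were fitted. It was 4 without Bleo_vehicle 1, the library with the lowest levels.

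Bleo_NVP against Bleo_vehicle compares bleomycin mice with and without the inhibitor, which here cannot be told apart from batch. This comparison shares the Bleo_vehicle libraries with the one above, so the values of the 2 are not independent. In edgeR 3 of the 9 genes rose, where 2.36% of genes were called and higher. On the log2 scale Lamp3 rose by 1.61 (SE 0.262, edgeR adjusted p = 0.00208) to 1848 ± 91.6 CPM (SD, n = 3), Abca3 by 1.06 (SE 0.25, edgeR adjusted p = 0.0212) to 945 ± 57.3 CPM and Lpcat1 by 0.83 (SE 0.21, edgeR adjusted p = 0.0298) to 531 ± 46.7 CPM. Slc34a2 (0.98, SE 0.287, edgeR adjusted p = 0.0544) and Sftpb (0.73, SE 0.295, edgeR adjusted p = 0.159) did not pass.

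The difference of Sftpc was 0.16 (95% interval -0.39 to 0.72), that of Sftpa1 0.28 (-0.36 to 0.93), that of Sftpd 0.26 (-0.19 to 0.70) and that of Napsa 0.23 (-0.21 to 0.66), none of which passed. The median over the 9 genes was 0.73, against -0.003 over all genes tested. Values did not overlap, with Bleo_NVP higher, for 5 of the 9 genes and for 16.2% of the genes tested. Lamp3 was called in 26 of 26 alternative settings (1.18 to 1.94), Abca3 in 21, Lpcat1 in 19, Slc34a2 in 7 and Sftpb in 2. The count of 3 became 1 without any single Bleo_NVP library or without Bleo_vehicle 2 and 5 without Bleo_vehicle 3, and was 3 without Bleo_vehicle 1.

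In the other comparisons no surfactant gene of type II-like nuclei passed. PBS_NVP against PBS_vehicle, the inhibitor without injury, called 0 of the 9 genes in edgeR and 0% of the 6097 tested (64 genes had an unadjusted p under 0.05, and DESeq2 called 0). Its differences lay between -0.16 for Sftpd (95% interval -0.61 to 0.28) and 0.14 for Lamp3 (-0.36 to 0.64). Bleo_NVP against PBS_NVP, bleomycin in mice given the inhibitor, likewise called 0 of 9 genes in edgeR and 0% of those tested (197 had an unadjusted p under 0.05, and DESeq2 called 0). Its differences lay between -0.23 for Sftpb (95% interval -0.80 to 0.35) and 0.17 for Sftpc (-0.39 to 0.72). The interaction, which is the inhibitor's effect under bleomycin minus that under PBS, called 0 of 9 genes in edgeR and 0.525% of those tested. It was 1.47 for Lamp3 (SE 0.363, edgeR adjusted p = 0.0956), 1.02 for Abca3 (SE 0.348, edgeR adjusted p = 0.255) and 0.79 for Lpcat1 (SE 0.292, edgeR adjusted p = 0.293), so a difference between the inhibitor's effects with and without injury was not shown. The interaction of Lamp3 passed in DESeq2 (1.47), without a filter on low counts (1.47), with the replicate number as a block (1.55) and without Bleo_vehicle 1 (1.18) or Bleo_vehicle 3 (1.79).

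Other marker genes moved in the same type II-like sums. In Bleo_vehicle the summed level of 11 type I markers was 1937 to 2287 CPM, against 710.2 to 1597 in the other groups, that of 10 transitional markers 465.5 to 819 CPM against 159 to 540, and that of 10 club markers 305 to 1219 CPM against 89.8 to 617. Higher sums were not particular to epithelial lists. Markers of interstitial macrophages or monocytes were at 53.1 to 131.9 CPM in Bleo_vehicle, against at most 37.35 in the other groups. Mesothelial markers were at 24.26 to 114.5 CPM, against at most 20.57. Cardiac muscle markers were lower instead, at 10.41 to 51.77 CPM against at least 54.55. The summed level of the 12 type II markers was 1478 to 7969 CPM in Bleo_vehicle and 7541 to 10900.0 CPM elsewhere. Mitochondrial UMIs were 0.684% to 1.50% of the Bleo_vehicle sums and 0.0476% to 0.0874% of the others. The part of these in the changes of the surfactant genes was not tested. The type II-like share of nuclei was 10.1% ± 2.33 for PBS_vehicle (SD, n = 3), 9.51% ± 2.25 for PBS_NVP, 9.46% ± 2.59 for Bleo_vehicle and 11.1% ± 2.50 for Bleo_NVP, and differed in no comparison (exact permutation p of 0.5 to 0.7, where 3 against 3 cannot go below 0.1).

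Counting nuclei at equal depth placed Bleo_vehicle lowest as well for Lamp3 and for the number of the 9 genes seen. This did not hold for every gene, as Sftpc and Sftpa1 overlapped between groups. At least 1 of the 9 genes was seen in 99.5% to 100% of the type II-like nuclei of each PBS and Bleo_NVP library, and in 73.0%, 99.1% and 99.9% of those of Bleo_vehicle. In general capillary-like nuclei that share was 34.6% to 97.1% in Bleo_vehicle, with a mean of 70.4%, and the means of the other groups were 42.4% (PBS_vehicle), 47.5% (PBS_NVP) and 34.0% (Bleo_NVP), so having any of the 9 is not read as expression. With every nucleus thinned to 500 UMIs, which left out none, type II-like nuclei carried on average 3.99 ± 0.214 of the 9 genes for PBS_vehicle (SD, n = 3), 4.10 ± 0.189 for PBS_NVP, 2.57 ± 0.986 for Bleo_vehicle and 3.83 ± 0.14 for Bleo_NVP. The 3 Bleo_vehicle libraries, at 1.50, 2.76 and 3.44, lay below the other 9. The thinned share of nuclei with a Lamp3 UMI was 51.4% ± 2.15 for PBS_vehicle, 56.6% ± 8.12 for PBS_NVP, 22.4% ± 11.2 for Bleo_vehicle and 56.6% ± 3.88 for Bleo_NVP. Unthinned, these means were 86.6%, 89.2%, 48.0% and 83.4%. General capillary-like nuclei gave a thinned Lamp3 share of at most 1.42% as a group mean, and their median depth was 912 to 3174.5 UMIs per library against 1057 to 5143 in type II-like nuclei. For Sftpc the thinned type II-like share was 38.0% to 79.0% in Bleo_vehicle and 65.5% to 82.6% in the other groups, which overlapped. In general capillary-like nuclei it was 38.8% ± 25.3 in Bleo_vehicle (SD, n = 3), with libraries from 10.6% to 59.4%, and at most 6.98% as the mean of another group, so the Bleo_vehicle share of Sftpc is not read as expression.

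Relative to the type II-like level, surfactant RNA outside type II-like nuclei was higher in Bleo_vehicle. The type II-like level was itself lower in Bleo_vehicle for Lamp3, Abca3, Lpcat1, Slc34a2 and Sftpb, and in Bleo_vehicle 1 for Sftpc. A lower type II-like level raises the percentages given here. The level of Sftpc in general capillary-like nuclei was 7.41%, 2.82% and 2.27% of the type II-like level of the same library in PBS_vehicle, 6.83%, 2.77% and 4.04% in PBS_NVP, 13.2%, 49.9% and 52.1% in Bleo_vehicle, and 1.97%, 2.28% and 5.22% in Bleo_NVP. Bleo_vehicle averaged 38.4% ± 21.9 (SD, n = 3) and did not overlap the other groups (exact permutation p = 0.1 against PBS_vehicle and against Bleo_NVP, the smallest that 3 against 3 allows). The same percentage in Bleo_vehicle was 18.0%, 45.1% and 31.3% for Napsa, against 0% to 4.12% in the other 9 libraries, and 16.4%, 28.3% and 12.3% for Sftpd, against 0.595% to 2.88%. For Lamp3 it was 4.90%, 14.7% and 3.84%, against 0.337% to 3.89%, and for Slc34a2 4.20%, 15.2% and 4.81%, against 0.611% to 1.68%. Of all Sftpc UMIs of a library, 61.8% to 79.3% lay outside type II-like nuclei in Bleo_vehicle and 11.2% to 34.2% in the others.

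**Figure D4:**
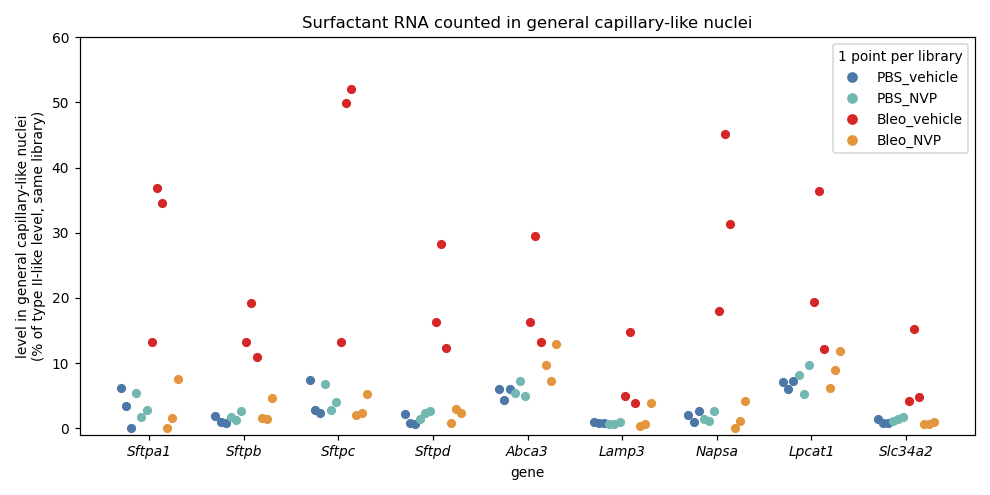
General capillary-like level of each surfactant gene as a percentage of its type II-like level in the same library, with 1 point per library coloured by group. The Bleo_vehicle points lie highest for Sftpc (13.2%, 49.9% and 52.1%), Sftpa1, Sftpb, Sftpd, Napsa, Abca3, Lpcat1 and Slc34a2, and overlap the other groups for Lamp3.

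In general capillary-like nuclei 8 of the 9 genes were tested, and Napsa was below the filter on low counts. In Bleo_vehicle against PBS_vehicle 5 rose, where 3.55% of 6138 genes were called and higher. Sftpc was 174, 98.5 and 80.3 CPM in PBS_vehicle, 173.8, 92.7 and 145.5 in PBS_NVP, 199.7, 1728 and 1913 in Bleo_vehicle, and 67.3, 78.8 and 176 in Bleo_NVP, so that Bleo_vehicle lay above all others. Its log2 level rose by 3.51 (SE 0.681, edgeR adjusted p = 0.0206), that of Sftpd by 3.32 (SE 0.412, edgeR adjusted p = 6.1e-05), Sftpa1 by 3.02, Sftpb by 2.36 and Slc34a2 by 1.85 (edgeR adjusted p of 0.0401, 0.00609 and 0.0114). Lamp3 (2.02, edgeR adjusted p = 0.0873), Lpcat1 (0.58) and Abca3 (0.56) did not pass.

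In Bleo_NVP against Bleo_vehicle 4 of the 8 fell in capillary-like nuclei, where 3.16% of genes were called and lower. The log2 level of Sftpc fell by 3.67 (SE 0.723, edgeR adjusted p = 0.0251), Sftpd by 2.83, Slc34a2 by 2.51 and Sftpb by 1.90 (edgeR adjusted p of 0.00143, 0.00663 and 0.0325), while Sftpa1 did not pass (-3.38, edgeR adjusted p = 0.0525). PBS_NVP against PBS_vehicle and Bleo_NVP against PBS_NVP called 0 of 8 genes and 0% of those tested in each. The interaction called Sftpd (-2.99, SE 0.667, edgeR adjusted p = 0.0445), 1 of 8 genes, where 0.635% were called and lower, and that call was lost without PBS_vehicle 2 or 3, without Bleo_vehicle 2 or without any Bleo_NVP library. The 5 calls became 2 without Bleo_vehicle 2 and 3 without PBS_vehicle 2, and the 4 calls became 2 without Bleo_vehicle 2 or without Bleo_NVP 2.

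Transcripts of other cells were also high in these nuclei. Scgb1a1, the secretoglobin of club cells, was at 503, 799.7 and 1584 CPM in capillary-like nuclei of Bleo_vehicle, at 692 and 739 in the libraries of run 1 and at 82.9 to 177.5 elsewhere. Chil3, a macrophage gene, was at 40.4 to 81.8 CPM in Bleo_vehicle and at most 13.9 elsewhere. The type I gene Ager was at 55.1 to 141 CPM in Bleo_vehicle and 4.15 to 45.6 elsewhere.

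As an alternative chosen after the data were seen, the general capillary-like level of each library was taken off the type II-like level of the 9 genes. For Sftpc this removed 13.2%, 49.9% and 52.1% of the level in Bleo_vehicle and 1.97% to 7.41% in the other 9 libraries. Differences after this step therefore partly follow from the amount removed, and the fit does not carry the error of that amount. Whether the amount held free RNA alone, for Abca3 and Lpcat1 among others, was not tested. Sftpc then stood at 2173, 3400.0 and 3459 CPM in PBS_vehicle, 2369, 3254 and 3452 in PBS_NVP, 1312, 1734 and 1758 in Bleo_vehicle, and 3347, 3375 and 3202 in Bleo_NVP, so that all 3 Bleo_vehicle libraries were below the other 9. In Bleo_NVP against Bleo_vehicle, 5 genes were called higher in edgeR in place of 3, with Sftpc (0.96, edgeR adjusted p = 0.028) and Slc34a2 (1.08, edgeR adjusted p = 0.037) added to Lamp3, Abca3 and Lpcat1. In Bleo_vehicle against PBS_vehicle, 6 were called lower in place of 4, with Sftpb (-1.11, edgeR adjusted p = 0.0418) and Napsa (-0.83, edgeR adjusted p = 0.0458) added, while Sftpc was at -0.78 (edgeR adjusted p = 0.0676). Sftpa1 and Sftpd did not pass in either.

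In club-like nuclei 8 of the 9 genes were tested, Napsa again falling below the filter. Bleo_vehicle against PBS_vehicle called 2 of them, where 2.08% of 6961 genes were called and higher. In log2 terms Sftpc rose by 3.69 (SE 0.495, edgeR adjusted p = 0.00307), from 93.3, 76.4 and 68.0 CPM to 189, 1377 and 1180.0 CPM, and Lamp3 rose by 1.75 (SE 0.467, edgeR adjusted p = 0.0445). Bleo_NVP against Bleo_vehicle called Sftpc, which fell by 3.28 (SE 0.505, edgeR adjusted p = 0.00945) to 58.0, 125 and 116 CPM, 1 of 8 genes where 1.61% were called and lower. Sftpb, the gene with the highest club-like ratio after Sftpd, differed by -0.18 (edgeR adjusted p = 0.89) and 0.07 (edgeR adjusted p = 0.958) in these comparisons. PBS_NVP against PBS_vehicle and Bleo_NVP against PBS_NVP called 0 of 8 genes and 0% of those tested in each, and the interaction 0 of 8 and 0.259%. Leaving out Bleo_vehicle 2 reduced the 2 calls to 1. The 1 call was lost without Bleo_NVP 2 or Bleo_NVP 3, became 2 without any single PBS library and 3 without Bleo_vehicle 1, without which the interaction called 1.

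Whole-lung sums mixed these sources. In such sums, fewer cells of a type and less RNA per cell cannot be told apart. Sftpc was at 311, 285 and 317 CPM in PBS_vehicle, 306, 278 and 329 in PBS_NVP, 266, 1263 and 1350.0 in Bleo_vehicle, and 340.2, 284 and 286 in Bleo_NVP. Bleo_vehicle 1 lay below every other library and Bleo_vehicle 2 and 3 above. Bleo_NVP against Bleo_vehicle called 2 of 9 genes, where 3.55% of 14442 genes were called and lower: Sftpc fell by 1.62 (SE 0.406, edgeR adjusted p = 0.0401) and Napsa by 1.32 (SE 0.289, edgeR adjusted p = 0.0245). In Bleo_vehicle against PBS_vehicle 0 of 9 were called and 2.44% of all, with Sftpc at 1.70 (edgeR adjusted p = 0.0505) and Napsa at 1.16 (edgeR adjusted p = 0.0514). Lamp3 stood at 0.91 (edgeR adjusted p = 0.119) and -0.67 (edgeR adjusted p = 0.312), so that the genes that passed in type II-like nuclei did not pass in the whole lung. PBS_NVP against PBS_vehicle and Bleo_NVP against PBS_NVP called 0 of 9 genes and 0% of those tested in each, and the interaction 0 of 9 and 0.298%. The 2 calls became 0 without Bleo_vehicle 2 or any Bleo_NVP library, 1 without PBS_vehicle 2 or 3 and 4 without Bleo_vehicle 1, and the 0 calls became 4 without Bleo_vehicle 1 and 1 without PBS_vehicle 1.

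**Figure D5:**
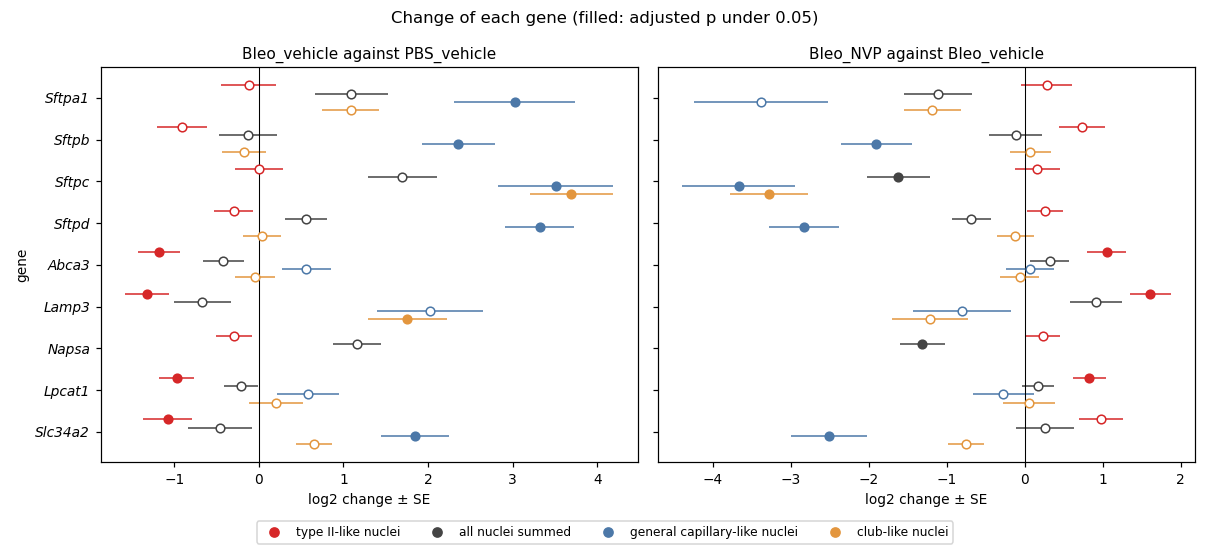
Log2 changes of the 9 genes, with the SE as whiskers, in type II-like nuclei, whole-lung sums (all nuclei), general capillary-like nuclei and club-like nuclei, for Bleo_vehicle against PBS_vehicle and Bleo_NVP against Bleo_vehicle, with filled points for genes called by edgeR. In type II-like nuclei Lamp3 (-1.32 and 1.61), Abca3 and Lpcat1 are called in both panels, and in capillary-like and club-like nuclei Sftpc is called with the opposite sign.

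Other genes of surfactant metabolism were counted in the same fit of type II-like nuclei, where 1.84% of all genes tested fell and 3.07% rose in Bleo_vehicle against PBS_vehicle, and 2.36% rose and 3.33% fell in Bleo_NVP against Bleo_vehicle. Of 28 genes of phospholipid synthesis 23 were tested, and 2 fell in the first of these and rose in the second. Elovl1, an elongase of very long fatty acids, fell by 1.82 (edgeR adjusted p = 0.00354) and rose by 1.82 (edgeR adjusted p = 0.00473), and Gpam, which begins glycerolipid synthesis, fell by 1.44 (edgeR adjusted p = 0.0151) and rose by 1.30 (edgeR adjusted p = 0.0291). The medians of the 23 genes were -0.122 and 0.159, beside -0.005 and -0.003 over all genes tested.

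Of 26 genes of the lamellar body and its secretion 22 were tested, and 2 went the other way, where 3.07% of all genes rose in the first comparison and 3.33% fell in the second. Cd63, a tetraspanin of late endosomes, rose by 1.31 (edgeR adjusted p = 0.046) and fell by 1.49 (edgeR adjusted p = 0.0429), and Abca1, a cholesterol and phospholipid exporter of the plasma membrane, rose by 1.90 (edgeR adjusted p = 0.0116) and fell by 1.43 (edgeR adjusted p = 0.0433). Of 16 regulators 13 were tested, and 1 fell in the first comparison and 2 rose in the second, beside 1.84% and 2.36% of all genes. Fgfr2, a receptor that maintains type II cells, fell by 1.50 (edgeR adjusted p = 0.0123) and rose by 1.70 (edgeR adjusted p = 0.00575), and Tfcp2l1, a transcription factor, rose by 0.87 in Bleo_NVP against Bleo_vehicle (edgeR adjusted p = 0.0391). In PBS_NVP against PBS_vehicle, in Bleo_NVP against PBS_NVP and in the interaction, edgeR called none of the genes of these 3 lists.

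Of the type I markers 9 of 11 were tested in type II-like nuclei, and 4 rose in Bleo_vehicle against PBS_vehicle (3.07% of all genes) and 6 fell in Bleo_NVP against Bleo_vehicle (3.33%). Pdpn rose by 2.36 and fell by 4.43, and Ager rose by 1.69 and fell by 2.20. Of 10 transitional markers 7 were tested, and 1 was called in each of these directions, beside the same 3.07% and 3.33%: Lgals3, a lectin also made by macrophages, rose by 1.37 and fell by 1.70. Of the 12 type II markers 11 were tested. Cxcl15 (-1.24, edgeR adjusted p = 0.0444) and Egfl6 (-1.03, edgeR adjusted p = 0.0374) fell in Bleo_vehicle against PBS_vehicle (2 of 11, beside 1.84% of all genes). The median of the 11 markers there was -0.82, beside -0.91 over the 9 surfactant genes and -0.005 over all genes tested. In Bleo_NVP against Bleo_vehicle edgeR called none of the 11, and their median was 0.70, beside 0.73 and -0.003.

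The genes whose levels over 19 classes were most like the mean pattern of the 9, among 7800 genes ranked, were Gm31227 (Pearson r = 0.942), Abca17 (0.930), Egfl6 (0.925), Hc (0.924) and Chil1 (0.919). Only genes averaging at least 10 CPM in type II-like nuclei were ranked, which is the class where the 9 are highest. Egfl6, Hc and Chil1 are also among the markers that named this class, so their likeness was partly fixed in advance. The classes share libraries and depth, and these values describe a likeness of pattern only. Abca17, which ends 0.881 kb before Abca3 on the same chromosome, averaged 65.0 CPM in type II-like nuclei and at most 3.57 CPM in any other class. Hc, which encodes complement C5, averaged 1439 CPM and at most 82.1 CPM elsewhere. Among the 9 surfactant genes the correlation was highest for Slc34a2 (0.981) and lowest for Abca3 (0.811) and Napsa (0.815). Each of the 9 is itself part of the mean pattern, which raises its value, so these are not comparable with those of other genes.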

How the data were processed

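The authors sequenced the RNA of sorted nuclei from 12 frozen, perfused mouse lungs, with 3 mice per group and 1 library per mouse. The authors aligned reads to mm10 with Cell Ranger (version 7.0 per the labels, 7.2.0 per the file headers) and deposited, for each library, raw counts of unique molecular identifiers (UMIs) per gene and barcode, without normalization. The labels also name Seurat 4.4.1. The authors' correction for free RNA is not in these counts and was not run here.

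Barcodes with 200 to 6000 genes and at most 5% mitochondrial UMIs were kept (47319 of 49163), and scrublet scores in scanpy 1.11.5 (Python 3.11.15) were used to remove 2708 doublets (5.72%), which left 44611 nuclei. Clustering used 2000 variable genes without the 9 surfactant genes, 30 components corrected for library by Harmony, 20 neighbours and Leiden resolution 1. Clusters were named from 28 marker lists that hold no surfactant gene, with at least 3 markers each. UMIs were summed per library and class and tested in R 4.3.3 with edgeR 4.0.16 by its quasi-likelihood test with robust settings (TMM, filterByExpr, 1 mean per group over 12 libraries, two-sided, Benjamini-Hochberg over all genes of the fit). A gene is called at an adjusted p under 0.05, and 6097 genes were tested in type II-like nuclei, 14442 in whole-lung sums, 6138 in general capillary-like and 6961 in club-like nuclei. CPM values are raw UMIs per 1000000 UMIs of a class in a library. Ratios between genes added 0.5 UMIs to each count and were compared by two-sided exact sign-flip tests over libraries. Shares were compared by two-sided exact permutation tests.

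The members and lists were chosen with earlier results of these data known. All 9 members are named whatever their values. From each pathway list and contrast up to 3 called genes that rose and 3 that fell were named, by the largest log2 change among genes averaging at least 10 CPM, and the 5 genes most similar to the members in their pattern over classes were named by Pearson correlation. Genes of the marker lists were named after their values were seen. Alternatives were DESeq2 1.42.0 and its size factors, no filter on low counts, fits of 6 libraries, each library left out, a replicate block, other clusterings and nucleus filters and, chosen after seeing the data, the level in general capillary-like nuclei taken off the members, leaving out run 1, and thinned sums. Between PBS_vehicle and PBS_NVP the correlations of same-numbered libraries' deviations were 0.229 to 0.553, and the lowest correlation over all 18 same-numbered pairs was -0.174. Counts simulated from the type II-like sums (5854 genes, Bleo_vehicle against PBS_vehicle) gave back 55% of 2-fold and 97% of 4-fold changes, with 7 false calls. The simulation gave every gene the same spread between libraries (coefficient of variation 0.21), changed only well-counted genes and held no batch. Its shares therefore need not hold for the real libraries. Coordinates are from GENCODE M21 on GRCm38, and promoters from RefSeq on GRCm38.p6.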

Additional observations from a re-analysis of the deposited data

Results flagged for a closer look

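The interaction of Sftpd in general capillary-like nuclei was marked because its test passed (log2 interaction -2.99, SE 0.667, edgeR adjusted p = 0.0445). It sets the inhibitor's effect under bleomycin against that under PBS. That call was lost without certain single libraries, as given above. Batch cannot be told apart from the bleomycin groups in it, and these nuclei are not known to use the gene. Sftpd stood at 55.1, 143 and 96.7 CPM in the Bleo_vehicle libraries and between 4.23 and 20.7 CPM in the other 9, and its interaction in type II-like nuclei was 0.42 (edgeR adjusted p = 0.68). Groups held 3 libraries each, so no library could be marked as standing apart from its own group.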

How the results depend on the processing

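Of 1170 alternative values of single genes, 1116 kept their side of the threshold (71 of them, called in neither fit, with a changed sign), 32 lost the call, 22 gained it and none that was called reversed. The counts of surfactant genes called moved more, and unless stated below the cause was not tested. In type II-like nuclei, Bleo_NVP against Bleo_vehicle gave 5 calls with no filter on low counts, 1 with only the 6 libraries compared (fewer samples), 5 with the capillary-like level taken off and 1 to 5 with a library left out, in place of 3. Bleo_vehicle against PBS_vehicle gave 0 with only 6 libraries, 2 without Harmony, 2 without run 1 and 1 to 5 with a library left out, in place of 4. The interaction, at 0, gave 1 by DESeq2, 1 with no filter, 1 with the replicate block and 0 to 3 with a library left out.

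In whole-lung sums, Bleo_NVP against Bleo_vehicle gave 1 with no filter, 1 with only 6 libraries and 0 to 4 with a library left out, in place of 2. Bleo_vehicle against PBS_vehicle, at 0, gave 2 by DESeq2, 2 with the replicate block and 0 to 4 with a library left out, and the interaction 0 to 2. In capillary-like nuclei a library left out gave 2 to 6 in place of 4 (Bleo_NVP against Bleo_vehicle) and 2 to 7 in place of 5 (Bleo_vehicle against PBS_vehicle), where the replicate block gave 3. The interaction, at 1, gave 4 by DESeq2, 3 with no filter, 2 with the replicate block and 0 to 3 with a library left out. In club-like nuclei, Bleo_NVP against Bleo_vehicle gave 3 with no filter and 0 to 3 with a library left out, in place of 1, and Bleo_vehicle against PBS_vehicle gave 1 by DESeq2, 4 with no filter, 1 with only 6 libraries and 1 to 3 with a library left out, in place of 2. The interaction, at 0, gave 1 by DESeq2, 1 with no filter and 0 to 1 with a library left out. Without the filter the median of all genes in type II-like nuclei was -0.431 in Bleo_NVP against Bleo_vehicle and 0.167 in Bleo_vehicle against PBS_vehicle. Ratios to Sftpc that differed from type II-like nuclei numbered 16 of 24 with at least 50 Sftpc UMIs (fewer classes), 19 of 96 against the other classes pooled, 39 of 48 with ratios to Sftpb instead, 39 of 112 with doublets kept and 49 of 96 with a pseudocount of 0.1, in place of 44 of 96. The type II-like share without Harmony differed by 4.37 percentage points in Bleo_NVP against Bleo_vehicle and by -3.14 in Bleo_vehicle against PBS_vehicle.

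The labels name no pairing by replicate number, and same-numbered PBS libraries do not all share a run. Over all groups, 9 of 12 libraries correlated best with their own number, as a hint from the data. The replicate block changed no other count. Library depth limits the low genes, as Napsa was too low to test in capillary-like and club-like nuclei.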

Other observations

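The longer surfactant genes were the ones that differed most in type II-like nuclei. Over the 9 genes, Spearman's rho between gene length (3.13 kb for Sftpc to 58.3 kb for Abca3) and log2 change was -0.9 in Bleo_vehicle against PBS_vehicle and 0.817 in Bleo_NVP against Bleo_vehicle, which share the Bleo_vehicle libraries. Over all 6097 genes tested, which are not independent replicates, it was 0.0012 and 0.0998. Lamp3 (53.0 kb), Abca3 and Lpcat1 (49.2 kb) are the 3 longest of the 9, and Sftpc and Sftpa1 (4.67 kb) the 2 shortest. These values are descriptions over genes of unequal level, and what accounts for them was not tested.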
